A study of Rattus norvegicus with 18 samples.

Results

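Intercellular adhesion molecule 1 (Icam1), vascular cell adhesion molecule 1 (Vcam1), E-selectin (Sele) and P-selectin (Selp) are the surface proteins by which activated endothelium catches leukocytes from the blood. They were followed in rat aortic rings treated with VEGF or angiopoietin-1 (Ang1). The 4 genes were chosen by name, and every probe set annotated to 1 of them alone was used. There were 5 such probe sets, 1 each for Icam1, Vcam1 and Sele and 2 for Selp, and the 4 genes stood among 13811 genes that the arrays name. All 5 lay on the Affymetrix rat array RAE230A (array A) and 0 on its companion RAE230B (array B).

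Rings of 2 mm were cut from the thoracic aorta of male Fisher 344 rats aged 5 weeks and floated in serum-free medium for 14 days. VEGF-treated rings received recombinant human VEGF at 10 ng/ml on day 13. Ang1-treated rings received recombinant human Ang1 at 100 ng/ml on day 13, together with a poly-His antibody at 5 µg/ml. Untreated rings were kept in medium alone, without the antibody, so that an effect of Ang1 and one of the antibody cannot be told apart. The interval between treatment and RNA was 20 h according to the sample labels and 18 h according to the design text. Each of the 3 groups had 3 RNAs, each from 4 to 6 pooled rings, and each RNA was put on both array types, which gave 18 arrays. The design text describes 3 animals that each gave 1 RNA to every group, whereas no label links a replicate to its animal, and p-values measure only the spread between these samples. A ring in culture has no blood flow and meets no circulating leukocytes, and all of its cell types contribute to the RNA. In such bulk RNA, fewer cells of a type and less RNA per cell cannot be told apart.

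Leukocytes leave the blood in steps. The selectins bind sugar-bearing ligands on the passing cell and let it roll. Icam1 and Vcam1, members of the immunoglobulin superfamily, are then bound by leukocyte integrins and hold the cell fast. E-selectin is made nearly only by endothelium and only after activation, P-selectin is stored ready-made in endothelial Weibel-Palade bodies and in platelets, and Icam1 and Vcam1 are also made by smooth muscle cells, fibroblasts and macrophages. Tumour necrosis factor (Tnf) and interleukin-1 are the classic inducers and act through the transcription factor NF-κB. VEGF is known as an activator of endothelial adhesion molecules in cultured human endothelium, and Ang1 as a factor that quiets it.

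NF-κB is the shared link between inducers and genes, so the bases upstream of the start sites were searched for a κB-like motif, GGNNNTTCC, for a TATA box, TATAAA, and for an AP-1-like motif, TGANTCA, on both strands. RefSeq promoter windows of rat build GRCr8, 300 bases long, were found for 3 of the 4 genes. The windows of Icam1 and Vcam1 are shown because both hold κB-like letters ahead of a TATA box. Each is printed for the 250 bases before the start site, on the gene's own strand, with matches on either strand in capitals. The Icam1 window lies at chr8:27829595-27829844 on the plus strand and the Vcam1 window at chr2:206742784-206743033 on the minus strand.
Icam1: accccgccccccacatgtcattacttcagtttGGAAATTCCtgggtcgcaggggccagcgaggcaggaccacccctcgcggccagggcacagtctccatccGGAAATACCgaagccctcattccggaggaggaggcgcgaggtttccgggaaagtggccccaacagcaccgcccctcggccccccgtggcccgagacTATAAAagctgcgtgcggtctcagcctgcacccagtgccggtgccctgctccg
Vcam1: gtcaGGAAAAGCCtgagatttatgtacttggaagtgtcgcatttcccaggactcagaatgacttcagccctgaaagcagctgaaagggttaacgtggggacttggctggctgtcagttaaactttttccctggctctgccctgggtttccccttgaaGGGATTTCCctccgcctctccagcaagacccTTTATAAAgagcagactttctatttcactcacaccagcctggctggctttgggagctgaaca

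The Icam1 window held κB-like letters from base -218, where they match on both strands, and from base -149, and TATAAA from base -53, counted back from the start site. The Vcam1 window held them from base -246 and from base -93. Its TATA letters begin at base -62 on the minus strand and at base -60 on the plus strand, and these matches overlap. The Icam1 start site in the table lies 157 bases inside the annotated gene. The AP-1-like motif was found in 0 of the 3 windows. Among 33469 RefSeq windows of 300 bases, 18.3% held GGNNNTTCC, 14.2% held TATAAA and 7.33% held TGANTCA. In the Sele window, whose upstream bases are chr13:78936264-78936513 on the plus strand and whose start site lies 517 bases inside the annotated gene, 0 of the 3 motifs matched. A match is a run of letters and not a measured binding site, and no match says only that these letters are absent from this window.

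The array values are deposited signals, linear intensities for whole probe sets. On array A, Ang1 replicate 2 and untreated replicate 2 stood apart from the rest. Their median correlations with the other arrays were 0.804 in Ang1 replicate 2 and 0.898 in untreated replicate 2, against 0.932 to 0.966 in the other 7. Their signals at the 3′ Gapdh control probe set were 446.9 in Ang1 replicate 2 and 64.4 in untreated replicate 2, against 2217.8 to 3246.8 in the other 7. The differences of the 4 genes are therefore also given without this pair of libraries. The ratio of 3′ to 5′ signal at the actin control, which is read as a sign of RNA quality, was 8.79 to 12.4 in VEGF-treated, 6.18 to 8.29 in Ang1-treated and 1.86 to 7.70 in untreated rings on array A. It did not overlap between VEGF-treated and Ang1-treated or untreated rings there. The 1.86 belonged to untreated replicate 2, and the other untreated arrays had 4.34 and 7.70. On array B the ratio was 5.24 to 11.9, 1.25 to 7.38 and 3.02 to 5.08 in the same order of groups. VEGF-treated and Ang1-treated rings overlapped on array B, whereas VEGF-treated rings lay above untreated rings there too. The part of this ratio in the results was not tested. The number of arrays limits the precision of every value below.

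Vcam1 was among the brightest probe sets of every array, Icam1 lay above the middle of every array, and the selectins lay below it. Vcam1 (probe set 1368474_at) ranged over the 97.6th to 99.6th percentile of its array, with a median of 99.1. Icam1 (1387202_at) ranged over the 58.1st to 95.1st, with a median of 90.0. Sele (1388018_at) lay at the 3.64th to 36.1st percentile, with a median of 17.5. The Selp probe sets lay at the 4.97th to 27.2nd percentile (1369374_at, median 12.3) and at the 14.5th to 41.7th (1391946_at, median 31.5). A filter that kept 9520 of 15866 probe sets, those with a mean at or above the 40th percentile, thus kept 2 of the 5, Icam1 and Vcam1. The 3 selectin probe sets were read from a fit to all 15866. Detection calls were not used here, so low signal cannot be separated from background, and probes of different genes differ in brightness, so these positions do not order the genes by RNA amount.

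The rings held endothelium and much else. Of 14 endothelial marker genes 11 were kept by the filter, among them Pecam1, Vwf, Tie1, Kdr and Emcn, as were 14 of 14 macrophage, 8 of 8 smooth muscle and 8 of 8 fibroblast markers. Of 8 markers of other leukocytes 6 lay below the filter, 1 had no probe set used here, and 1 was kept. The platelet list, relevant to Selp, had 3 of 6 kept (Pf4, Gp9 and Treml1), with Itga2b and Ppbp below the filter. The summed level of the 10 endothelial markers measured on array A, on the log2 scale, was 11.16 to 11.76 in VEGF-treated, 10.62 to 11.80 in Ang1-treated and 10.69 to 11.70 in untreated rings, and both low ends belong to the libraries that stood apart. These ranges overlap. Cells other than endothelium can make Icam1 and Vcam1, and which cells gave their signal was not tested.

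**Figure D1:**
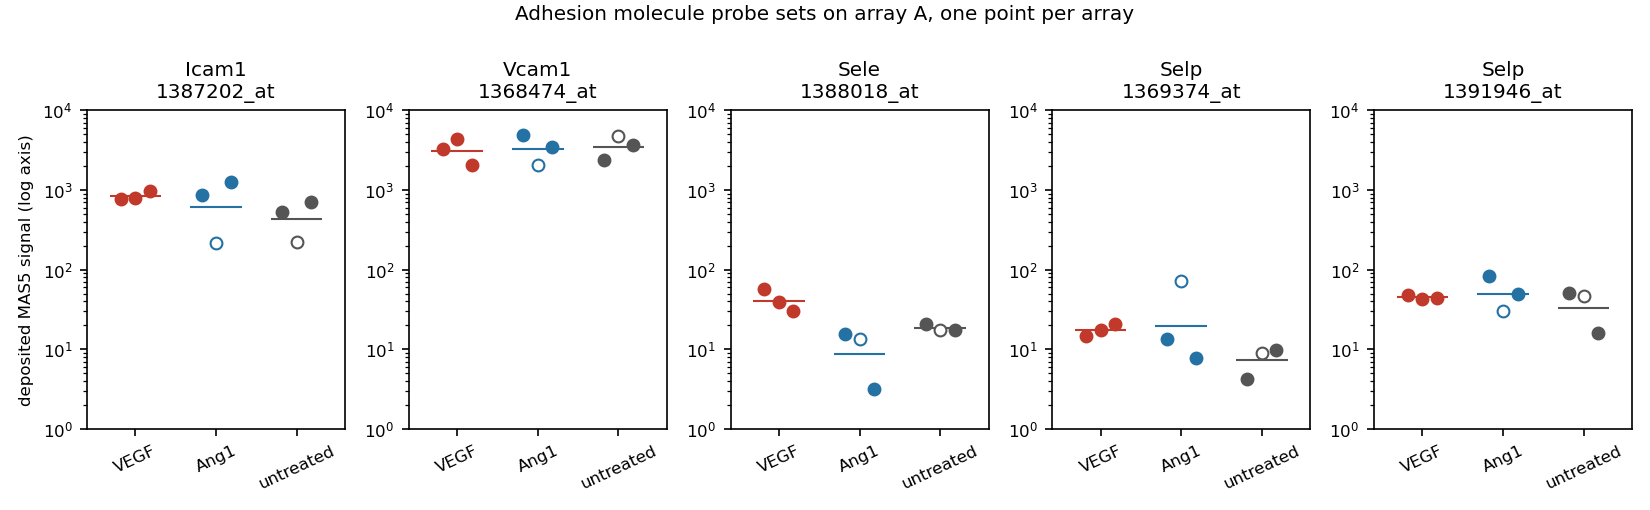
Deposited signal (vertical axis, log scale) of the 5 probe sets in each array of type A, by group from left to right VEGF, Ang1 and untreated; points are the 3 arrays of a group, open points the libraries that stood apart, and bars the geometric mean. The Sele points of the VEGF group (30.3 to 57.4) all lie above, and those of the Ang1 group (3.2 to 15.4) all lie below, the untreated points (17.3 to 20.7).

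Sele, on which leukocytes roll along activated endothelium, was the member whose arrays fell into 3 ranges that did not overlap, though at low signal. Its signal was 57.4, 39.7 and 30.3 in VEGF-treated rings, 15.4, 13.4 and 3.2 in Ang1-treated rings and 20.7, 17.5 and 17.3 in untreated rings. Every VEGF array was above, and every Ang1 array below, all 3 untreated arrays, in values that are low throughout. After quantile normalisation of log2(signal + 16), the scale of all differences below, Sele averaged 5.87 ± 0.43 in VEGF-treated, 4.58 ± 0.32 in Ang1-treated and 5.24 ± 0.05 in untreated rings (SD, n = 3 each). The added 16 is of the size of these signals and makes the fold changes smaller than those of the signals themselves.

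For VEGF against untreated, the Sele difference was 0.63 ± 0.26 log2 units (SE), a fold of 1.54 with a 95% interval of 1.03 to 2.32. Its limma p was 0.0385 unadjusted and 1.00 adjusted over all 15866 probe sets, and the exact two-sided permutation p was 0.1, the smallest that 3 against 3 arrays can give. For Ang1 against untreated it was -0.67 ± 0.26, a fold of 0.631 (0.420 to 0.947), with a limma p of 0.0300 unadjusted and 0.921 adjusted and again an exact permutation p of 0.1. Both comparisons use the same 3 untreated arrays, and neither difference passed the adjusted threshold of 0.05.

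VEGF against Ang1, which uses no untreated array for its means, gave Sele a difference of 1.29 ± 0.26 log2 units, a fold of 2.45 (1.63 to 3.68). Its limma p was 0.000594 unadjusted and 0.946 adjusted, and the exact permutation p was 0.1. Because the signals, 3.2 to 57.4, are low and may include background, the size of the fold is uncertain beyond its interval. With a pseudocount of 64 in place of 16 the difference was 0.57 and with 1 it was 2.40. Without the pair that stood apart, the limma differences were 0.60 ± 0.29 for VEGF against untreated, -0.61 ± 0.32 for Ang1 against untreated and 1.21 ± 0.29 for VEGF against Ang1. The size of the separation was thus close to that with all arrays, at a wider error. Of all 15866 probe sets, 7 (0.0441%) had every VEGF array above and every Ang1 array below the untreated arrays, as Sele had. That order was taken from the values of Sele itself, so the share is a description and not a test. How often the order arises by chance was not computed.

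The median of the endothelial markers lay on the same side as Sele in each comparison. For VEGF against untreated 7 of the 11 kept markers were above 0 (median 0.16), for Ang1 against untreated 8 of 11 were below 0 (median -0.26), and for VEGF against Ang1 9 of 11 were above 0 (median 0.33). Over all kept probe sets of array A the medians were -0.01, -0.03 and 0.02 in that order, with 49.1%, 46.7% and 52.5% above 0. In any comparison 0 of the 11 markers were called. Emcn, endomucin of the endothelial surface, named after its values were seen, had log2 levels of 7.47 to 7.57 in VEGF-treated, 6.32 to 6.76 in Ang1-treated and 6.44 to 6.77 in untreated rings. Its VEGF arrays stood above the others, which overlapped. Array by array, Ang1 replicate 3 had the highest summed endothelial level of the 9 arrays, 11.80, and the lowest Sele level, 4.35. Ang1 replicate 2 had the lowest summed level, 10.62, and a Sele level of 4.44. The part of endothelial cell content in the Sele values was not tested.

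Selp, the selectin of Weibel-Palade bodies and platelet granules, was read by a pair of probe sets that did not run together. Probe set 1369374_at had signals of 14.9, 17.5 and 20.6 in VEGF-treated rings, 13.4, 72.6 and 7.8 in Ang1-treated rings and 4.3, 9.0 and 9.9 in untreated rings. The VEGF arrays lay above the untreated ones, the Ang1 arrays overlapped both, and the highest value belonged to Ang1 replicate 2, which stood apart. Probe set 1391946_at had 47.9, 42.9 and 44.0 in VEGF-treated rings, 84.0, 30.0 and 49.4 in Ang1-treated rings and 51.0, 46.3 and 15.9 in untreated rings. All groups overlapped there. Over the 9 arrays the log2 values of the pair of probe sets had a Pearson correlation of -0.66, and over the 7 arrays without the pair of libraries -0.25.

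None of the Selp differences passed the test. For 1369374_at, VEGF against untreated gave 0.42 ± 0.29 log2 units (95% interval -0.23 to 1.08), Ang1 against untreated 0.46 ± 0.29 (-0.19 to 1.11) and VEGF against Ang1 -0.04 ± 0.29 (-0.69 to 0.61). Without the libraries that stood apart these were 0.46 ± 0.18, 0.13 ± 0.20 and 0.34 ± 0.18, so that the last changed sign. Ang1 against untreated was 0.089 without Ang1 replicate 2 alone. For 1391946_at the differences were 0.12 ± 0.44 for VEGF against untreated, 0.11 ± 0.44 for Ang1 against untreated and 0.01 ± 0.44 for VEGF against Ang1. Without the pair of libraries they were 0.26, 0.71 and -0.45. The 95% intervals over all arrays reach from -0.96 to 1.10, so that a change of either sign up to about that size is within the error.

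Icam1, which binds the leukocyte integrins LFA-1 and Mac-1, had signals of 771.3, 788.6 and 984.8 in VEGF-treated rings, 870.3, 213.7 and 1259.3 in Ang1-treated rings and 535.7, 219.5 and 711.4 in untreated rings. All 3 VEGF arrays were above the untreated arrays. The Ang1 arrays held both the highest and the lowest of the 9 values, and the low values of the Ang1 and untreated groups were those of the libraries that stood apart. On the log2 scale Icam1 averaged 9.74 ± 0.25 in VEGF-treated, 9.17 ± 1.54 in Ang1-treated and 8.87 ± 0.72 in untreated rings (SD, n = 3 each).

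For VEGF against untreated the Icam1 difference was 0.87 ± 0.65 log2 units, a fold of 1.83 with a 95% interval of 0.673 to 4.96. A higher difference was found in 2.08% of the 9520 kept probe sets, and a smaller limma p in 13.4%. The limma p of Icam1 was 0.210 unadjusted and 1.00 adjusted, and the exact permutation p was 0.1. Ang1 against untreated gave 0.30 ± 0.65 (95% interval -1.14 to 1.74, adjusted p = 0.973) and VEGF against Ang1 0.57 ± 0.65 (-0.87 to 2.01, adjusted p = 0.973). The order of the treatments turned round without the pair of libraries: VEGF against untreated was 0.47 ± 0.29, Ang1 against untreated 0.77 ± 0.32 and VEGF against Ang1 -0.31 ± 0.29.

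The low values of either library moved Icam1 when it was left out alone. Without untreated replicate 2, VEGF against untreated was 0.45 and Ang1 against untreated -0.10. Without Ang1 replicate 2, VEGF against untreated was 0.90, Ang1 against untreated 1.21 and VEGF against Ang1 -0.31. In these same libraries the summed endothelial markers were at 10.62 (Ang1 replicate 2) and 10.69 (untreated replicate 2), the lowest of the 9 arrays, and the summed smooth muscle markers were at 10.73 and 11.04 in the same order, again the lowest. Their part in the Icam1 values was not tested.

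**Figure D2:**
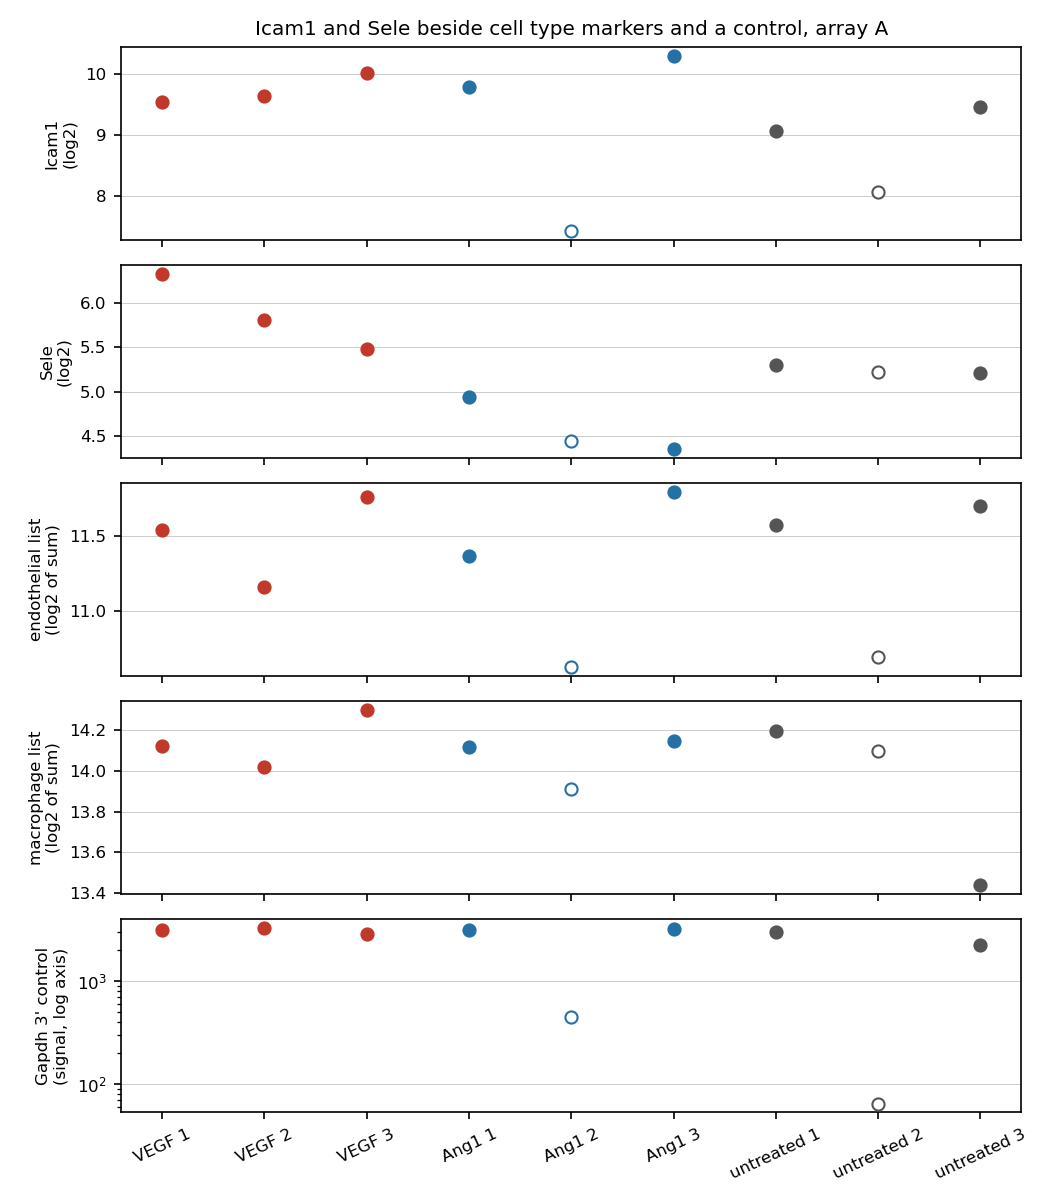
From top to bottom, for each of the 9 arrays of type A (horizontal axis, VEGF, Ang1 and untreated from left to right): normalised log2 level of Icam1 and of Sele, log2 summed level of the endothelial and of the macrophage markers, and deposited signal of the 3′ Gapdh control on a log axis; open points are the libraries that stood apart. Ang1 replicate 2 and untreated replicate 2 are the lowest in Icam1, in the endothelial markers and in the control, whereas their Sele levels lie with those of their own groups.

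Vcam1, the ligand of the leukocyte integrin VLA-4, was bright and did not separate the groups. Its signal was 3296.8, 4381.9 and 2070.4 in VEGF-treated rings, 4831.2, 2072.1 and 3428.7 in Ang1-treated rings and 2362.1, 4752.1 and 3648.8 in untreated rings. The 3 ranges overlapped. Log2 levels averaged 11.75 ± 0.66 in VEGF-treated, 11.89 ± 0.59 in Ang1-treated and 11.61 ± 0.42 in untreated rings (SD, n = 3 each), and these means differed from each other by less than the SDs.

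The Vcam1 differences were 0.14 ± 0.39 log2 units for VEGF against untreated (95% interval -0.73 to 1.02), 0.29 ± 0.39 for Ang1 against untreated (-0.58 to 1.16) and -0.14 ± 0.39 for VEGF against Ang1 (-1.01 to 0.73). As folds the first spans 0.605 to 2.02. An increase to 2 times the untreated level therefore cannot be separated from no change with these arrays. On the deposited scale without quantile normalisation both comparisons with untreated rings turned sign, to -0.15 for VEGF and -0.08 for Ang1. Without the pair of libraries the differences were 0.28 ± 0.33, 0.69 ± 0.36 and -0.41 ± 0.33, in the order above. For Ang1 against untreated, leaving out Ang1 replicate 1 gave 0.013, untreated replicate 1 gave 0.061, Ang1 replicate 2 gave 0.54 and untreated replicate 2 gave 0.46.

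**Figure D3:**
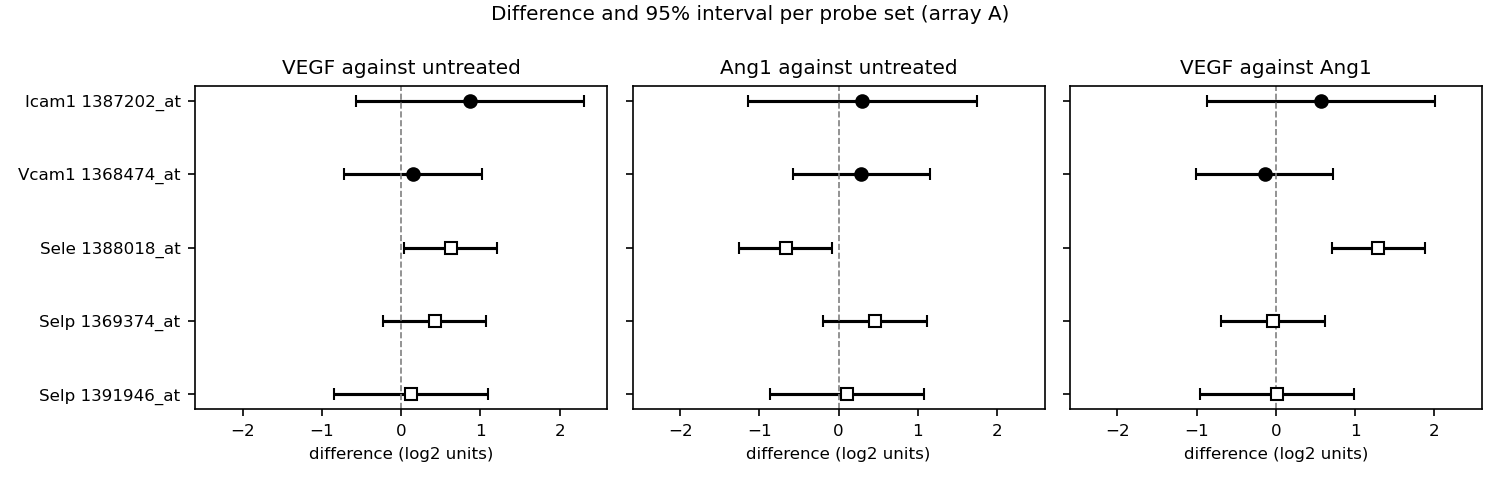
Difference in log2 units (horizontal axis) of each probe set in the 3 comparisons between VEGF, Ang1 and untreated, with its 95% interval from limma; circles come from the fit to filtered probe sets and squares from the fit to all. The intervals of Sele exclude 0 in all 3 comparisons before adjustment, and those of Icam1, Vcam1 and both Selp probe sets include it.

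Across the 5 probe sets, 0 were called in any comparison at an adjusted p under 0.05 in limma, as were 0% of all probe sets on array A; on array B the share was 0% as well. For VEGF against untreated, 5 of 5 differences were above 0, with a median of 0.42. Of the kept probe sets of array A, which leave out the 3 selectin probe sets, 49.1% were above 0. Over all 15866 probe sets the median difference was -0.01. The VEGF arrays were all above all untreated arrays in 3 of 5 probe sets (Icam1, Sele and Selp 1369374_at), beside 3.84% of all probe sets. For Ang1 against untreated, 4 of 5 differences were above 0, beside 46.7% of the kept probe sets of array A and a median of 0.01 over all 15866. In that comparison 0 of 5 had all Ang1 arrays above the untreated ones (4.42% of all probe sets). Sele, 1 of 5, had all Ang1 arrays below (5.18%). For VEGF against Ang1, 1 of 5, again Sele, had all VEGF arrays above (3.66%). An unadjusted p under 0.05 was found for Sele alone in each comparison, where 2.28% of all probe sets had one for VEGF against untreated, 4.33% for Ang1 against untreated and 3.35% for VEGF against Ang1. Which members reached it depended on the pair of libraries that stood apart. Without them Sele did so for VEGF against Ang1 only, and Selp 1369374_at did for VEGF against untreated and Icam1 for Ang1 against untreated. With 5 probe sets of 4 genes, each count of members rests on few values.

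The members did not vary as 1 group over the arrays. Icam1 and Vcam1 had a Pearson correlation of 0.27 over the 9 arrays and 0.22 over 7, and Icam1 and Sele 0.24 over 9 and -0.47 over 7. These are descriptions over arrays that share their groups and libraries. The genes most like Icam1 over the 9 arrays of type A were Emilin1, an elastic-fibre glycoprotein (r = 0.97), Sec61a1, a subunit of the protein translocation channel of the endoplasmic reticulum (r = 0.97), and Il3ra, a cytokine receptor chain (r = 0.97). Over the 7 arrays without the pair these were 0.81, 0.91 and 0.93. Those most like Vcam1 were Rpa2, a subunit of the single-stranded DNA binding protein RPA (0.96), Cyp1b1, a cytochrome P450 (0.91), and Pdcl, phosducin-like protein (0.91), with 0.96, 0.90 and 0.93 over 7 arrays.

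Among the inducers of adhesion molecules, Tnf and Il1b had all arrays of both treated groups above all untreated arrays, though neither passed the adjusted threshold. Beside this, 3.59% of the kept probe sets of array A had all VEGF arrays above the untreated ones, and 3.52% all Ang1 arrays. Both comparisons use the same untreated arrays, and the share with both was not computed. Tnf, measured on 1391384_at, had signals of 113.3, 158.6 and 65.7 in VEGF-treated rings, 277.4, 141.4 and 263.3 in Ang1-treated rings and 51.4, 29.7 and 20.6 in untreated rings. The untreated arrays were the lowest of the 9, and the VEGF and Ang1 arrays overlapped. The difference was 1.20 ± 0.47 log2 units for VEGF against untreated and 1.92 ± 0.47 for Ang1 against untreated, with adjusted limma p of 1.00 and 0.951 in that order.

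Il1b, the other classic inducer, showed the same order of groups. Its signals were 343.6, 306.6 and 230.1 in VEGF-treated rings, 462.4, 341.6 and 451.4 in Ang1-treated rings and 89.6, 174.9 and 120.0 in untreated rings, again with no overlap of treated and untreated arrays. The differences were 0.94 ± 0.33 for VEGF against untreated and 1.42 ± 0.33 for Ang1 against untreated (adjusted limma p of 1.00 and 0.951 in that order). VEGF against Ang1 gave -0.72 ± 0.47 for Tnf and -0.48 ± 0.33 for Il1b, with overlapping arrays. Beside them, the summed macrophage markers, 13 of 14 on array A, were 14.02 to 14.29 in VEGF-treated, 13.91 to 14.14 in Ang1-treated and 13.44 to 14.19 in untreated rings. These ranges overlap, but taken gene by gene 10 of 14 macrophage markers were above 0 for VEGF against untreated (median 0.28) and 11 of 14 for Ang1 against untreated (median 0.30), beside medians of -0.01 and -0.03 over all kept probe sets of array A. Of those probe sets 49.1% and 46.7% were above 0 in the same order. The marker medians thus lay on the same side as Tnf and Il1b. Array by array, untreated replicate 1 had a summed macrophage level of 14.19, above every Ang1 array, with Tnf and Il1b signals of 51.4 and 89.6. Untreated replicate 3 had the lowest summed level, 13.44, with signals of 20.6 and 120.0. The part of the markers in the Tnf and Il1b values was not tested.

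Of 32 inducers and members of their signal chain, 21 were kept, among them the inhibitors Nfkbia, Nfkbib and Tnip1. Differences above 0 therefore do not all point to more of the inducing signal. For VEGF against untreated 0 of the 21 were called, and 19 differences were above 0 and 2 below. Their median was 0.27, beside -0.01 over all kept probe sets of array A. Of the kept probe sets of array A, 49.1% were above 0. An unadjusted p under 0.05 was reached by 2 of 21, Tnf and Il1b, beside 1.66% of kept probe sets on that array. For Ang1 against untreated 0 were called, with 13 above 0 and 8 below and a median of 0.12 beside -0.03. Of the kept probe sets of array A, 46.7% were above 0. An unadjusted p under 0.05 was reached by 4 of 21, beside 3.18%. The others of those 4, named after their values were seen, were Il1a, with 0.91 ± 0.30 (0.24 ± 0.30 for VEGF, with overlapping arrays), and Irf1, an interferon-regulated transcription factor, with 0.88 ± 0.26. The 2 comparisons share their untreated arrays.

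**Figure D4:**
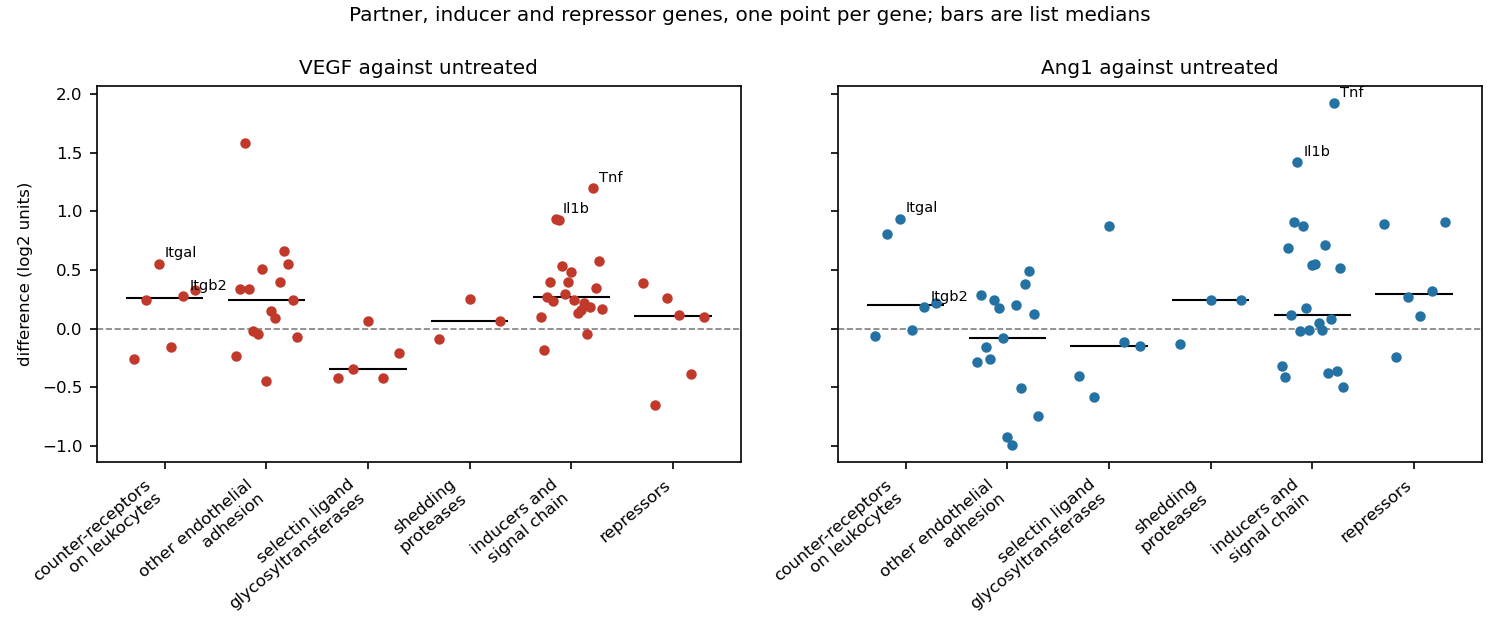
Difference in log2 units (vertical axis) of the kept genes of the 6 pathway lists (horizontal axis), for VEGF against untreated on the left and Ang1 against untreated on the right, with 1 point per gene and a bar at each list's median. Tnf and Il1b are the 2 highest points of the inducer list in each panel, at 1.20 and 0.94 for VEGF and 1.92 and 1.42 for Ang1.

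Of the partners that bind the 4 molecules, the LFA-1 chains were measured on array B. Itgal, the alpha chain, had signals of 1629.7, 1995.7 and 1351.5 in VEGF-treated rings, 2535.9, 766.0 and 961.7 in Ang1-treated rings and 928.5, 1626.0 and 965.1 in untreated rings. The deposited signals of Ang1 replicate 3 on array B were scaled to a lower mean than the rest, so the groups are better compared after normalisation. On that scale the difference was 0.55 ± 0.39 for VEGF against untreated and 0.94 ± 0.39 for Ang1 against untreated, with adjusted p of 1.00 and 0.467 in limma. Itgb2, the beta chain shared with Mac-1, gave 0.28 ± 0.45 and 0.18 ± 0.45 in the same order. Itgam, the alpha chain of Mac-1, lay below the filter, and the VLA-4 chain Itga4 and the P-selectin ligand Selplg were not analysed here.

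The other lists had 0 called genes in each comparison as well. Over the kept probe sets of array A, 49.1% were above 0 for VEGF and 46.7% for Ang1, each against untreated. Of 12 leukocyte counter-receptors 6 were kept, with 4 above 0 and 2 below for VEGF (median 0.26) and likewise 4 and 2 for Ang1 (median 0.20), each against untreated. Of 16 other adhesion and transmigration molecules of endothelium 15 were kept, with 10 above 0 and 5 below for VEGF (median 0.24) and 7 and 8 for Ang1 (median -0.08). The gene of that list with the smallest p for VEGF was Cd99, a transmigration molecule, at 1.58 ± 1.23, where untreated replicate 2 had a signal of 6.4 against 522.6 and 576.7 in its group. For Ang1 it was Jam2, a junctional adhesion molecule, at -0.92 ± 0.56 on array B. Its log2 level in Ang1 replicate 2 was 7.85, against 9.80 and 9.89 in the other Ang1 arrays and 9.77 to 10.61 in untreated rings.

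Enzymes that build and cut these molecules gave small lists. Of 7 glycosyltransferases and sulfotransferases of selectin ligands 5 were kept, with 1 above 0 and 4 below in both comparisons with untreated rings (medians -0.34 for VEGF and -0.15 for Ang1). Tpst1, which sulfates tyrosines of the P-selectin ligand, gave -0.42 ± 0.29 for VEGF, and St3gal4, a sialyltransferase, 0.88 ± 0.36 for Ang1 on array B (adjusted limma p of 0.467). Of 5 shedding proteases 3 were kept, and Adam17, which sheds Vcam1 and Icam1 from the cell surface, gave 0.26 ± 0.30 for VEGF and 0.24 ± 0.30 for Ang1.

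Of 9 repressors of adhesion molecule genes 6 were kept, with 4 above 0 and 2 below for VEGF (median 0.11) and 5 and 1 for Ang1 (median 0.29). Klf2, a flow-responsive factor that restrains Vcam1 and Sele, had signals of 209.8, 182.7 and 386.9 in VEGF-treated rings, 233.7, 610.7 and 207.3 in Ang1-treated rings and 492.3, 394.3 and 297.4 in untreated rings. The groups overlapped, and VEGF against untreated gave -0.65 ± 0.47. Hmox1, haem oxygenase 1, had 619.1, 536.1 and 1171.6 in Ang1-treated rings and 257.9, 456.7 and 514.9 in untreated rings. Its Ang1 arrays were all above the untreated ones, by 0.90 ± 0.41 log2 units (adjusted limma p of 0.951).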

How the data were processed

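The deposited values are linear intensities that the authors' MAS5 software wrote, as named in the submitters' processing notes with no version. Their mean, trimmed by 2% at each end, was 250.0 to 250.1 on 17 of 18 arrays and 94.8 on the array B of Ang1 replicate 3. From these signals log2(signal + 16) was quantile normalised within each array type, 57 control probe sets were left out and a floor on the mean at the 40th percentile was set (which kept 9520 on array A, 9166 on array B). The annotation gave 1 symbol to 12789, several to 312 and none to 2822 probe sets on array A, and to 7570, 100 and 7663 on array B. Genes came only from probe sets with 1 symbol. The brightest kept probe set stood for a gene outside the 4 members, from array A where it had one and otherwise from array B.

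All 9 arrays of a type were fitted in 1 linear model with limma 3.58.1 in R 4.3.3, with an intensity trend and a threshold of 0.05 after Benjamini-Hochberg adjustment over the array type. The script was tested on simulated data with known fold changes. The 4 genes, the lists and the tests were chosen with earlier results of these data known. The text names all member probe sets, the gene of each list with the smallest unadjusted p in either comparison with untreated rings, the binding partners Itgal, Itgam, Itgb2, Itga4 and Selplg, the inducers Tnf and Il1b, and the 3 genes most correlated with Icam1 and Vcam1. Tried in place of the main settings were pseudocounts of 1 and 64, no filter, no quantile normalisation, no intensity trend, robust variance moderation, a replicate block, leaving out each replicate, and leaving out the libraries that stood apart. Deviations of same-numbered samples from their group means correlated by 0.14, 0.31 and 0.41 for VEGF and untreated and by 0.37, 0.49 and 0.34 for Ang1 and untreated on array A, all over 0.1. For VEGF and Ang1 they were 0.23, -0.02 and -0.15. Thus 7 of 9 same-numbered pairs of samples were over 0.1, beside 5 of 18 differently numbered pairs, which ran from -0.45 to 0.33. The value of 0.49 belonged to the libraries that stood apart. The label of untreated replicate 1 names a different, two-cycle amplification, and its effect was not tested beyond leaving that library out.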

Additional observations from a re-analysis of the deposited data

Results flagged for a closer look

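Sele was the member for which the treatments differed from each other by the test of the difference before adjustment. VEGF against Ang1 was 1.29 log2 units on 1388018_at, with every VEGF array above and every Ang1 array below the untreated arrays. The limma p was 0.000594 unadjusted and 0.946 adjusted, and the exact permutation p was 0.1, the smallest possible here. Over 16 alternative settings the difference ran from 0.57 to 2.40, with adjusted limma p of 0.632 to 1.00. Its direction could hardly turn in them, because the groups did not overlap. The signals behind it, 3.2 to 57.4, lie at or below the 36.1st percentile of their arrays.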

How the results depend on the processing

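At 3 arrays a group, with a pair of libraries that stood apart, differences of single probe sets are known only within wide intervals, and the selectin probe sets are dim. The direction of Sele held in every setting tried. This was nearly fixed in advance, because its groups did not overlap, so that leaving out arrays or another pseudocount could hardly turn it. No intensity trend, robust variance moderation and the replicate block leave the difference as it is. The Sele difference ran from 0.32 to 0.91 for VEGF and from -1.49 to -0.25 for Ang1, each against untreated. Its unadjusted limma p was under 0.05 in 8 of 16 settings each. Icam1 for VEGF against untreated, where the groups did not overlap either, stayed at 0.45 to 1.16. No member probe set passed the adjusted threshold in any setting.

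With the replicate number as a block, 0 probe sets were called in each comparison and no call changed. Icam1 for VEGF against untreated then had a difference of 0.87 ± 0.45, and unadjusted p under 0.05 was found for 297, 417 and 410 probe sets of array A in place of 158, 303 and 189, first for VEGF and then for Ang1 against untreated, and last for VEGF against Ang1. Without quantile normalisation 117 probe sets of array B were called for Ang1 against untreated and 25 for VEGF against Ang1, where 1 array of the Ang1 group had been scaled otherwise, and 0 with it. In that setting Vcam1 turned to -0.15 for VEGF and -0.084 for Ang1 against untreated, and Selp 1391946_at to -0.14 for VEGF against Ang1. Sele was then 0.74 ± 0.31 for VEGF and -0.40 ± 0.31 for Ang1 against untreated. Its unadjusted limma p was 0.0358 and 0.221 in that order. For VEGF against Ang1, a pseudocount of 1 turned Selp 1369374_at to 0.052 and one of 64 turned Selp 1391946_at to -0.030. Without both libraries that stood apart, VEGF against Ang1 turned to -0.31 for Icam1, 0.34 for Selp 1369374_at and -0.45 for Selp 1391946_at. The causes were not tested.

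Leaving out 1 replicate at a time, Icam1 ran from -0.26 to 1.21 for Ang1 against untreated and from -0.31 to 1.13 for VEGF against Ang1. Vcam1 ran from -0.14 to 0.50 for VEGF against untreated, from 0.013 to 0.54 for Ang1 against untreated and from -0.43 to 0.21 for VEGF against Ang1. Selp 1391946_at ran from -0.21 to 0.32 for VEGF against untreated, from -0.23 to 0.57 for Ang1 against untreated and from -0.45 to 0.35 for VEGF against Ang1, and Selp 1369374_at from 0.089 to 0.69 for Ang1 against untreated and from -0.26 to 0.33 for VEGF against Ang1. Of the 3 genes most like Icam1, 0 were among the 3 most alike over 7 arrays and 0 by Spearman correlation, and of those most like Vcam1, 0 and 1.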
